A study of Homo sapiens with 9 samples.

Results

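The keratin genes were the rows whose symbol was KRT followed by a number and, where present, a letter from A to C. This rule found 28 genes of the 32906 listed, 17 of type I and 11 of type II, and it left out the keratin pseudogenes and the keratin-associated proteins. RNA sequencing covered 9 libraries of Huh7 cells, a human hepatocellular carcinoma line, in 3 groups of 3. Scramble libraries came from cells given a control siRNA, and Si-KDM4C#1 and Si-KDM4C#2 libraries from cells given either of 2 siRNAs against KDM4C, a histone demethylase, all by transient transfection and all collected at 48 h. The labels give 1 cell line and no further treatment, and they do not say whether the libraries of a group came from separate cultures. The study's methods speak of independent repeats for its experiments in general and do not say how this applies to the sequenced libraries. If the libraries of a group share a culture, p-values measure only technical spread.

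Keratins are the intermediate filament proteins of epithelial cells. A filament is built from pairs of a type I and a type II chain, and most type I genes lie in a cluster on chromosome 17 and type II genes on chromosome 12, with KRT18 as a type I gene beside its partner KRT8 in the type II cluster. Hepatocytes are known for KRT8 and KRT18 alone, bile duct cells add KRT7 and KRT19, and KRT17, KRT10 and the hair keratins belong to stratified epithelia and their appendages.

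Values are FPKM, fragments per kilobase of exon scaled to the depth of the library, as deposited. A gene was tested when its mean reached 1 FPKM in at least 1 group, which held for 14363 genes and for 8 keratins, 3 of type I and 5 of type II. The tests compared log2(FPKM + 1) with limma-trend over all 9 libraries, with Benjamini-Hochberg adjustment over all tested genes. "Rose" and "fell" mean an adjusted p under 0.05, and "called" means that and a fold change over 2. The libraries held 14597502 to 18058555 fragments, fitted from the steps of the FPKM values.

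KDM4C, the targeted gene, was measured at 4.88, 4.63 and 4.57 FPKM in Scramble, at 1.18, 1.10 and 1.13 in the Si-KDM4C#1 libraries, and at 0.256, 0.349 and 0.256 in those of Si-KDM4C#2. The 3 groups did not overlap, and the order matched the labels. The log2 fold change was -1.41 (SE 0.0765, adjusted p = 2.65e-07) after Si-KDM4C#1 and -2.15 (SE 0.0765, adjusted p = 5.45e-08) after Si-KDM4C#2. The hepatocyte markers went against the labelled cell type, since 14 of the 15 that the files list stayed at or below 0.248 FPKM in every library, with CPS1 as the exception.

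In the Scramble cells 4 genes made up nearly all keratin mRNA. KRT8, KRT18, KRT7 and KRT17 together took 91.5%, 92.2% and 92.8% of the summed keratin FPKM, which was 552, 550.4 and 573. KRT8, the type II chain of simple epithelia, was the highest, at 199, 195 and 205 FPKM. KRT18, its type I partner, stood at 131, 142 and 148 FPKM.

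KRT7, the type II keratin of ducts and glands, followed at 109.5, 105 and 107 FPKM. KRT17, a type I keratin of basal cells and of wounded epidermis, stood at 65.4, 65.0 and 71.2 FPKM. KRT80, a type II keratin found near desmosomes and in differentiating epithelia, had 32.2, 29.2 and 28.9 FPKM. Down to this point in the order, the Scramble libraries of neighbouring genes did not overlap.

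KRT10, the type I keratin of the upper epidermis, was next at 9.14, 8.59 and 8.17 FPKM, below all KRT80 values. The last 2 tested genes were the hair keratins KRT81, at 2.58, 2.25 and 2.06 FPKM, and KRT86, at 2.19, 1.76 and 1.32 FPKM. The values of KRT81 and KRT86 overlapped, so their order is not set.

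These levels are per kilobase of all annotated exons of a gene, and the exon set of KRT8 spans 6881 bases while its principal transcript has 1882. Recalculated per kilobase of the principal transcript, a comparison added after the data were seen, KRT8 in Scramble came to 729 ± 17.9 FPKM (SD, n = 3) and to 50.1% of keratin mRNA. KRT18 then stood at 289.5 ± 17.8 FPKM and KRT7 at 250.3 ± 5.07 FPKM, and the order of the first 6 genes was kept. Differences between groups for a single gene are the same on both scales, apart from the pseudocount.

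**Figure D1:**
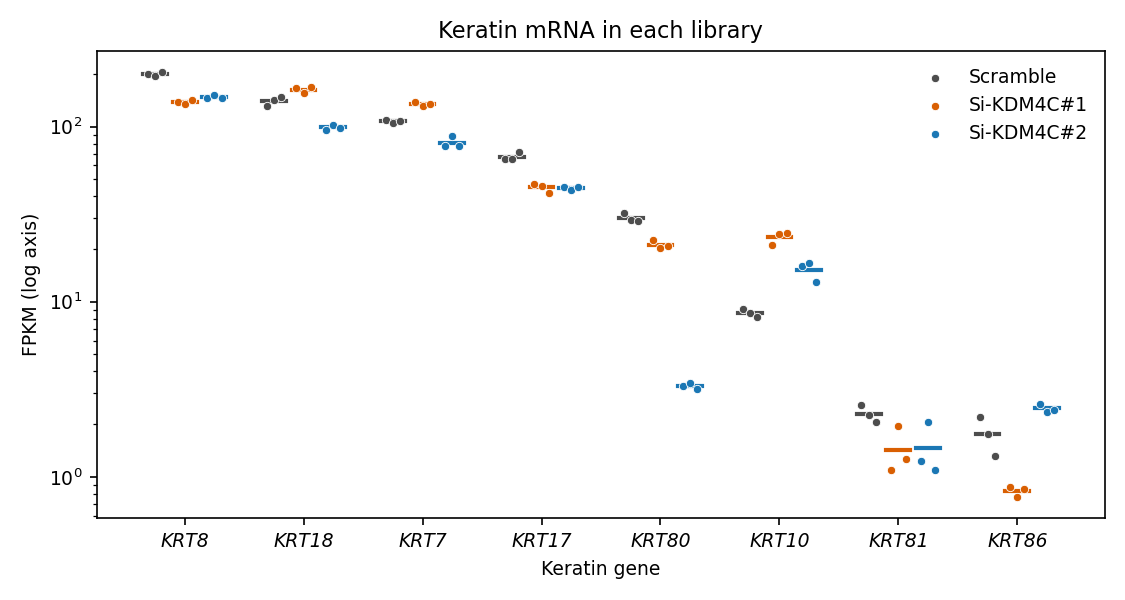
FPKM of the 8 tested keratins on a log axis, with a point for each library and a line at the mean of each group of 3. KRT80 falls from 28.9 to 32.2 FPKM in Scramble to 3.19 to 3.46 with Si-KDM4C#2, and KRT10 lies above its Scramble values with either siRNA.

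How alike these genes are decides how safely a fragment can be given to 1 of them, so the coding sequences of the GENCODE release 29 principal transcripts were aligned. Over the whole coding sequence KRT81 and KRT86 shared 93.6% of aligned bases and an unbroken run of 605 bases, while KRT8 and KRT7 shared 72.8% with a longest run of 41 bases. Fragments from KRT81 and KRT86 could therefore be split between them by the counting, and the values of both are uncertain.

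Some keratin genes also overlap others. KRT8 (chr12:52897187-52949954, minus strand) and KRT18 (chr12:52948871-52952901, plus strand) share 525 exon bases on opposite strands in GRCh38, which is 7.63% of the KRT8 and 16.3% of the KRT18 exon bases. KRT7 (chr12:52232520-52252186, plus strand) shares 282 exon bases, 6.89% of its own, with the antisense gene KRT7-AS. KRT7-AS stood at 5.85 FPKM in Scramble, 3.95 after Si-KDM4C#1 and 3.70 after Si-KDM4C#2. KRT10 (chr17:40818117-40822595, minus strand) shares 56 exon bases with TMEM99, which stood at 3.18, 5.60 and 4.27 FPKM in the same order. The part of KRT7-AS and TMEM99 in the keratin values was not tested. Whether the libraries kept strand is not given in the sources used here, so fragments from these shared bases cannot be told apart. By position, no exon base of KRT80 (chr12:52168996-52192000, minus strand) or KRT17 (chr17:41619441-41624842, minus strand) was shared with another annotated gene.

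With Si-KDM4C#1, KRT10 was 2.71 times its Scramble mean and was the single keratin called. KRT18 and KRT7 rose by less, and KRT8, KRT17, KRT80, KRT81 and KRT86 fell. In counts, 3 of the 8 tested keratins rose, where 31.7% of all tested genes did, and 5 fell, where 33.9% of all did. By the rule with a fold over 2, 1 keratin was called higher, where 4.04% of all genes were, and 0 lower, where 4.83% were. The median log2 fold change was -0.47 over the 8 keratins and -0.032 over all tested genes.

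KRT10 stood at 21.2, 24.2 and 24.8 FPKM with Si-KDM4C#1. Its lowest value was above the highest Scramble value of 9.14. The log2 fold change was 1.34 (SE 0.0917, adjusted p = 1.14e-06), rank 207 from the highest among all tested genes. Tested against a fold change of 2 in place of no change, it had an adjusted p of 0.0664 and was no longer called.

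KRT8 stood at 139, 135 and 142 FPKM, below every Scramble library, and fell by 0.52 on the log2 scale (SE 0.0356, adjusted p = 1.07e-06). Its partner KRT18 moved the other way, to 165, 155 and 167 FPKM, above every Scramble library. The KRT18 log2 fold change was 0.21 (SE 0.0510, adjusted p = 0.00514). The ratio of KRT18 to KRT8 was 0.660, 0.729 and 0.723 in Scramble and 1.19, 1.15 and 1.18 with Si-KDM4C#1, so that KRT18 exceeded KRT8 in all 3 knockdown libraries and in 0 Scramble libraries on this scale. Per kilobase of the principal transcript KRT8 stayed above KRT18 after Si-KDM4C#1, at 506 ± 13.05 against 335 ± 13.3 FPKM.

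KRT7 stood at 137, 130.3 and 135 FPKM, again above every Scramble library, with a log2 fold change of 0.32 (SE 0.0535, adjusted p = 0.000504). Whether KRT7 and KRT18 passed depended on the scaling. Under quantile normalization KRT7 had a log2 fold change of 0.12 (adjusted p = 0.0986) and KRT18 of 0.015 (adjusted p = 0.783), and after adjustment for GC content KRT7 had 0.059 (adjusted p = 0.408) and KRT18 0.085 (adjusted p = 0.274). The direction stayed the same in these settings, but neither gene passed the test.

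KRT17 stood at 47.1, 45.9 and 41.7 FPKM and fell by 0.57 (SE 0.0534, adjusted p = 9.25e-06). KRT80 stood at 22.4, 20.2 and 20.8 FPKM and fell by 0.49 (SE 0.0563, adjusted p = 3.91e-05). Neither gene overlapped with Scramble in any library.

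The hair keratins were near the limit of the test. KRT86 stood at 0.879, 0.773 and 0.858 FPKM, from 27 to 38 fragments a library, and fell by 0.57 (SE 0.114, adjusted p = 0.00154). With a pseudocount of 0.1 its log2 fold change was -0.96, since adding 1 compresses changes of low genes. KRT81 stood at 1.09, 1.95 and 1.26 FPKM and had a log2 fold change of -0.45 (SE 0.169, adjusted p = 0.0399). It no longer passed when any Scramble library or when Si-KDM4C#1 replicate 1 or 3 was left out (adjusted p from 0.0521 to 0.131), by quantile normalization (adjusted p = 0.117) and without a filter on low genes (adjusted p = 0.108).

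With Si-KDM4C#2, KRT80 was the single keratin called, at 0.1102 times its Scramble mean. KRT8, KRT18, KRT7 and KRT17 each fell by less than a fold of 2, and KRT10 rose again. In counts, 2 of the 8 tested keratins rose, where 34.4% of all tested genes did, and 6 fell, where 25.0% did. By the rule with a fold over 2, 0 keratins were called higher, where 2.60% of all genes were, and 1 lower, where 2.30% were. The median log2 fold change was -0.44 over the 8 keratins and 0.057 over all tested genes. The Scramble libraries are the same in both comparisons, so their results are not independent.

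KRT80 stood at 3.29, 3.46 and 3.19 FPKM with Si-KDM4C#2, from at most 237 fragments a library, against 2017 to 2151 fragments in Scramble. No library came near the Scramble range. The log2 fold change was -2.85 (SE 0.0563, adjusted p = 3.59e-09), the third lowest of all tested genes, and it lay between -3.24 and -2.80 in all alternatives. The nearest tested genes were ATG101, 91502 bases away, at 0.041 (adjusted p = 0.649), and KRT7, 40520 bases away, at -0.41.

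KRT8 stood at 145, 152 and 145 FPKM and fell by 0.44 (SE 0.0356, adjusted p = 5.85e-06), and KRT18 stood at 95.5, 102 and 98.6 FPKM and fell by 0.50 (SE 0.0510, adjusted p = 2.4e-05). Both lay below every Scramble library. Their ratio, KRT18 to KRT8, was 0.661, 0.672 and 0.680, inside the Scramble range.

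KRT7 stood at 76.96, 88.4 and 77.03 FPKM, below every Scramble library, and fell by 0.41 (SE 0.0535, adjusted p = 0.000135). After GC adjustment the KRT7 log2 fold change was -0.73. KRT17 stood at 45.4, 43.3 and 45.2 FPKM and fell by 0.58 (SE 0.0534, adjusted p = 1.31e-05). KRT10 stood at 15.9, 16.7 and 13.01 FPKM, above every Scramble library, with a log2 fold change of 0.74 (SE 0.0917, adjusted p = 8.77e-05).

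KRT86 stood at 2.61, 2.36 and 2.42 FPKM, above every Scramble library, with a log2 fold change of 0.34 (SE 0.114, adjusted p = 0.0265). It no longer passed after GC adjustment (0.059, adjusted p = 0.628), without a filter on low genes (adjusted p = 0.0737), and without Scramble replicate 2 or 3 or Si-KDM4C#2 replicate 1 or 3 (0.22 to 0.35, adjusted p from 0.0561 to 0.0819). KRT81 stood at 1.24, 2.07 and 1.09 FPKM, and its second library lay inside the Scramble range. Its log2 fold change of -0.44 (SE 0.169, adjusted p = 0.0494) did not hold with a pseudocount of 0.1 (adjusted p = 0.0538), without a filter on low genes (adjusted p = 0.128), or without any 1 Scramble library, Si-KDM4C#1 replicate 3, or Si-KDM4C#2 replicate 1 or 3 (adjusted p from 0.0625 to 0.159).

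**Figure D2:**
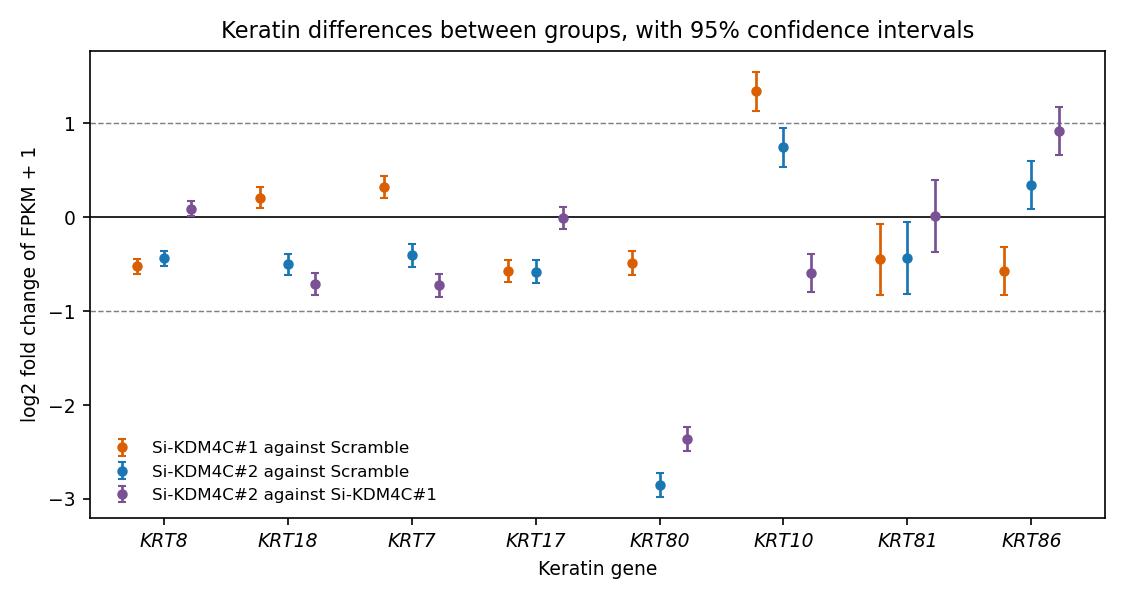
Log2 fold changes of FPKM + 1 for the 8 tested keratins in each comparison, with 95% confidence intervals from limma-trend and dashed lines at a fold change of 2. KRT8 and KRT17 lie at -0.58 to -0.44 with either siRNA, KRT18 and KRT7 lie on opposite sides of 0 with the 2 siRNAs, and KRT80 reaches -2.85 with Si-KDM4C#2.

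The 2 siRNAs target the same gene, so the direct comparison asks which keratins differed between them. Relative to Si-KDM4C#1, 4 keratins were lower with Si-KDM4C#2, where 26.5% of all tested genes were, and 1 was higher, where 35.9% were. With a fold over 2, 1 was called lower, where 2.49% of all genes were, and 0 higher, where 4.41% were.

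KRT80 differed most, at -2.36 (SE 0.0563, 95% confidence interval -2.48 to -2.23, adjusted p = 5.13e-09). KRT7 was lower with Si-KDM4C#2 by a log2 fold change of -0.73 (SE 0.0535, adjusted p = 2.34e-06), and KRT18 by a log2 fold change of -0.71 (SE 0.0510, adjusted p = 1.99e-06). Both genes kept the difference, between -0.86 and -0.61, in every alternative with all libraries, although the rise of each with Si-KDM4C#1 did not pass the test in all of them.

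KRT10 was also lower with Si-KDM4C#2 than with Si-KDM4C#1, at -0.59 (SE 0.0917, adjusted p = 0.000336), while it exceeded Scramble with both. KRT86 was higher, at 0.92 (SE 0.114, adjusted p = 8.1e-05). The antisense gene AC121757.1, which shares 32 exon bases with KRT86, stood at 2.66 FPKM in Scramble, 0.542 after Si-KDM4C#1 and 2.72 after Si-KDM4C#2, and its part in the KRT86 values was not tested.

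KRT17 showed no detected difference between the siRNAs, at -0.0072 with a 95% confidence interval of -0.13 to 0.11 (adjusted p = 0.915). KRT8 was at 0.087 with an interval of 0.0073 to 0.17 (adjusted p = 0.0563), and the 2 groups of libraries did not overlap. KRT81 was at 0.014 with an interval of -0.37 to 0.40 (adjusted p = 0.948), which leaves room for a difference in either direction.

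Summed over all keratin genes, FPKM ran from 550.4 to 573 in Scramble, from 514 to 534 after Si-KDM4C#1 and from 386 to 411 after Si-KDM4C#2. The groups did not overlap. As a share of all fragments, keratins took 0.258% to 0.269% in Scramble, 0.224% to 0.233% after Si-KDM4C#1 and 0.181% to 0.192% after Si-KDM4C#2. In bulk RNA, fewer cells of a type and less RNA per cell cannot be told apart.

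The make-up changed more with Si-KDM4C#1 than the total did. KRT8 went from 35.7% ± 0.282 (SD, n = 3) of keratin FPKM in Scramble to 26.3% ± 0.290, KRT18 from 25.2% ± 1.21 to 30.8% ± 0.568, and KRT7 from 19.2% ± 0.583 to 25.4% ± 0.203. With Si-KDM4C#2 these shares were 37.3% ± 0.298, 25.0% ± 0.434 and 20.5% ± 0.916, while KRT80 went from 5.39% ± 0.410 to 0.840% ± 0.0130. KRT10 had 1.55% ± 0.116 in Scramble, 4.44% ± 0.420 after Si-KDM4C#1 and 3.85% ± 0.420 after Si-KDM4C#2.

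Filaments take type II and type I chains in equal number, but no keratin protein was measured here. The ratio of type II to type I keratin FPKM is one of mRNA and does not give the ratio of the chains. It was 1.67, 1.54 and 1.51 in Scramble, and lay below that range in the Si-KDM4C#1 libraries, at 1.285, 1.278 and 1.2804. With Si-KDM4C#2 it was 1.45, 1.53 and 1.45, which overlapped with Scramble. Per kilobase of the principal transcript the ratio was 2.25 to 2.47 in Scramble, 1.86 to 1.89 after Si-KDM4C#1 and 2.32 to 2.43 after Si-KDM4C#2. The Si-KDM4C#1 libraries were thus below the other groups with either length, while the means of Scramble and Si-KDM4C#2, whose ranges overlapped, changed places, from 1.57 and 1.48 to 2.33 and 2.36.

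**Figure D3:**
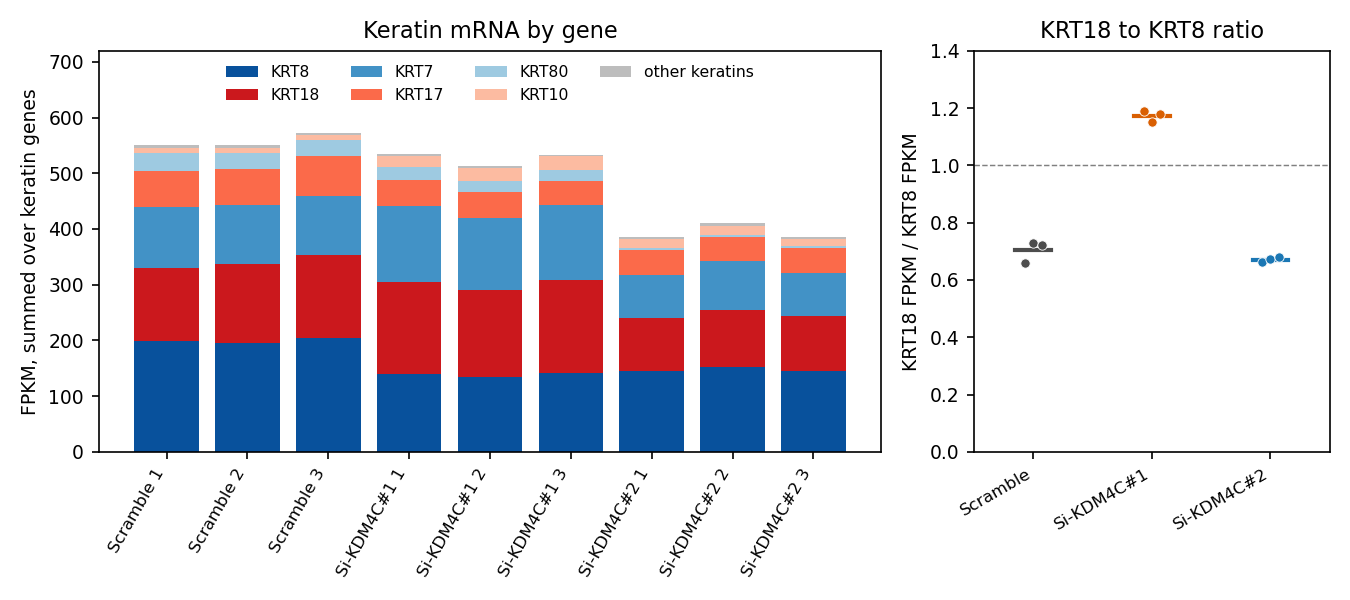
Left, summed keratin FPKM of each library, stacked by gene in blue for type II and red for type I, from an axis that starts at 0. Right, the ratio of KRT18 to KRT8 FPKM, with a point per library, a line at each group mean and a dashed line at 1. The Si-KDM4C#2 bars end between 386 and 411 FPKM, below all others, and the ratio passes 1 only in the Si-KDM4C#1 libraries.

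The other 20 keratins stayed below the filter and were not in the main test. No library exceeded 0.356 FPKM or 21 fragments for any of them. They were 3 simple epithelial keratins, 4 basal or activated, 6 of differentiated stratified epithelia, 6 of hair and root sheath, and KRT222, a keratin-like gene. Of these, 12 had under 3 fragments in every library, 7 were at 0 in all Scramble libraries, 8 were above 0 in a single library, and 3 were above 0 in all 9.

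The partners that KRT10, KRT17 and the hair keratins use in skin and hair were among these low genes or not among the 28 keratin genes listed. KRT6A, a partner of KRT17, was above 0 in 1 library, with 1 fragment. The type I hair keratins KRT31 and KRT34 had 1 and 8 fragments over all libraries. The keratins below the filter that are named here were chosen after their values were seen.

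KRT19, the type I keratin of bile ducts, is of interest beside KRT7. It stood at 0.170, 0.188 and 0.2998 FPKM in Scramble, or 6, 7 and 12 fragments, and at 0 to 0.0293 FPKM after Si-KDM4C#1 and 0 to 0.0502 after Si-KDM4C#2, with 2 fragments in all for each siRNA. KRT15, a type I keratin of basal cells, had 14, 19 and 21 fragments in Scramble, 5, 1 and 4 after Si-KDM4C#1 and 9, 3 and 2 after Si-KDM4C#2. In both genes, chosen after their values were seen, every knockdown library lay below every Scramble library. How often this held among all genes was not counted. KRT9, also chosen after its values were seen, went the other way with Si-KDM4C#2 only. It was at 0 in all Scramble and Si-KDM4C#1 libraries and had 1, 2 and 1 fragments with Si-KDM4C#2.

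In the fit with no filter on low genes the KRT19 log2 fold change was -0.26 with either siRNA (adjusted p = 0.0024 and 0.00283), and that of KRT15 was -0.17 with Si-KDM4C#1 (adjusted p = 0.00412) and -0.15 with Si-KDM4C#2 (adjusted p = 0.00916). These values are compressed by the pseudocount of 1, and the levels are those of a few fragments. KRT16, the third gene above 0 in all libraries with KRT15 and KRT83, had 2 to 14 fragments a library, and its groups overlapped (adjusted p = 0.582 and 0.979).

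A further 68 rows were keratin pseudogenes, most of them copies of KRT8 and KRT18. They summed to 13.6 to 17.8 FPKM a library, with overlap between the groups, against at least 386 FPKM for the keratin genes. Fragments of KRT8 and KRT18 that were placed on these copies would be missing from the genes, and the size of that loss was not tested.

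The siRNAs pair with KDM4C at stretches that share letters with some keratin mRNAs. The target stretches below lie in the coding part of KDM4C-202, at chr9:7013790-7013808 for Si-KDM4C#1 and chr9:6893107-6893125 for Si-KDM4C#2, both on the plus strand of GRCh38. Capitals mark the 7 bases that pair with positions 2 to 8 of the guide strand, the seed that small RNAs use to find other mRNAs.
Si-KDM4C#1 target: agatagcagcaATGAAGAa
Si-KDM4C#2 target: gctggagaattCATGATCa

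The principal transcripts of 5 tested keratins hold 1 of these 7-base stretches. The stretch of Si-KDM4C#2 occurs in the 3′ UTR of KRT80, at chr12:52169651-52169657 on the minus strand, and in the coding parts of KRT81 and KRT86. The stretch of Si-KDM4C#1 occurs in the coding parts of KRT8 and KRT18. Here the 19 bases are lined up with the target, and capitals mark bases equal to it.
KRT80, Si-KDM4C#2: tCctGtttcTgCATGATCA
KRT81, Si-KDM4C#2: GagctgaAccgCATGATCc
KRT86, Si-KDM4C#2: GagctgaAccgCATGATCc
KRT8, Si-KDM4C#1: caggcagctatATGAAGAg
KRT18, Si-KDM4C#1: AGcTgctcttcATGAAGAA

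KRT80 and KRT18 matched 11 of 19 bases each, KRT81 and KRT86 matched 9, and KRT8 matched 7. Among the longest transcripts of 11110 tested protein-coding genes, 48.1% held the 7-base stretch of Si-KDM4C#1 and 20.02% that of Si-KDM4C#2, on the transcript strand and in any region. KRT80 and KRT18 match at 1 more base. The 8-base stretch in KRT80, CATGATCA, was in 6.82% of these transcripts, and that in KRT18, ATGAAGAA, was in 24.8%. Of the keratins with a stretch, KRT80 and KRT8 fell with the siRNA concerned, and KRT18 rose with Si-KDM4C#1. With Si-KDM4C#2, KRT81 fell and KRT86 rose, which did not hold in all alternatives. With the other siRNA each of these genes fell. The log2 fold changes there were -0.49 for KRT80, -0.44 for KRT8, -0.50 for KRT18, -0.45 for KRT81 and -0.57 for KRT86. The fall of KRT81 did not hold in all alternatives there either. A shared stretch is a match of letters, and its part in any of these values was not tested.

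Of the other intermediate filament genes, 7 were tested. With Si-KDM4C#1, 4 rose and 1 fell, where 31.7% and 33.9% of all tested genes did, and the list median was 0.32 on the log2 scale beside -0.032 for all genes. With Si-KDM4C#2, 7 rose and 0 fell, where 34.4% and 25.0% of all did, and the median was 0.53 beside 0.057. The nuclear lamin gene LMNB2 was called in both, from 9.13 ± 0.582 FPKM (SD, n = 3) to 39.1 ± 1.276 and 35.1 ± 2.70, with log2 fold changes of 1.99 (adjusted p = 1.42e-08) and 1.83 (adjusted p = 4.48e-08). LMNB1, the other B-type lamin, went from 33.4 ± 1.62 to 44.7 ± 1.66 and 41.5 ± 0.832 FPKM. LMNA, for lamins A and C, went from 49.1 ± 2.205 to 97.9 ± 2.21 and 71.3 ± 2.50 FPKM. VIM, the mesenchymal filament vimentin, stood at 51.6 ± 4.24 FPKM in Scramble, with -0.031 (adjusted p = 0.657) for Si-KDM4C#1 and 0.36 (adjusted p = 0.000591) for Si-KDM4C#2.

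Keratin filaments attach to desmosomes and hemidesmosomes, and 16 genes of these structures were tested. With Si-KDM4C#1, 7 rose and 4 fell (31.7% and 33.9% of all genes), with a median of 0.10. With Si-KDM4C#2, 7 rose and 7 fell (34.4% and 25.0% of all genes), with a median of -0.014. JUP, the desmosomal plakoglobin, had the highest mean over the 9 libraries and stood at 172 ± 6.39 FPKM in Scramble. PKP3 and PLEC, for a plakophilin and plectin, came next by that mean, and were at 32.8 ± 2.45 and 35.8 ± 2.59 in Scramble, where LAMB3 was higher than both and DSP higher than PKP3.

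PERP, a desmosomal membrane protein, was called higher with both siRNAs, at 1.49 (adjusted p = 2.24e-07) and 1.12 (adjusted p = 2.3e-06). LAMB3, a chain of the laminin under hemidesmosomes, went from 41.2 ± 1.73 to 22.7 ± 0.223 and 8.64 ± 1.25 FPKM and was called lower with Si-KDM4C#2 at -2.14 (adjusted p = 6.79e-08), the same comparison in which KRT80 was called. ITGB4, the hemidesmosome integrin, was called lower there at -1.16 (adjusted p = 5.92e-07), with -0.10 (adjusted p = 0.191) for Si-KDM4C#1. DST, which links keratin to hemidesmosomes, was called lower with Si-KDM4C#1, at -1.27 (adjusted p = 2.12e-07), and fell by 0.43 with Si-KDM4C#2 (adjusted p = 0.000367).

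Of 13 genes of the cornified envelope, 2 were listed and tested. SFN, an adaptor abundant in keratinocytes, rose with both siRNAs, from 95.9 ± 2.38 to 178 ± 6.58 and 125 ± 5.74 FPKM. TGM1, which crosslinks the envelope, rose with Si-KDM4C#1 (0.69, adjusted p = 0.00013) and had 0.12 (adjusted p = 0.309) with Si-KDM4C#2.

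Of the epithelial transcription factors, 7 were tested, with 2 higher and 4 lower for Si-KDM4C#1 (31.7% and 33.9% of all genes) and 3 higher and 1 lower for Si-KDM4C#2 (34.4% and 25.0% of all genes). The list medians were -0.12 and 0.12. KLF5 and TFAP2A were the highest in Scramble, at 39.6 ± 2.26 and 28.7 ± 0.809 FPKM, and PITX1 stood at 15.99 ± 0.616. PITX1, a homeobox factor, was called higher with both siRNAs, at 1.41 (adjusted p = 1.47e-08) and 1.398 (adjusted p = 3.51e-08). TP63, the master factor of basal keratinocytes, was at 0.0327 FPKM or less in the group means, and GRHL2, OVOL1 and SOX2 were at 0.0085 FPKM or less, all chosen after their values were seen.

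The keratin profile was set beside markers of the cell types that the label could hold. Of 20 hepatocyte markers, 15 were listed and 1 was tested, CPS1 of the urea cycle, at 289 ± 15.6 FPKM in Scramble, 243 ± 8.08 after Si-KDM4C#1 and 198.5 ± 2.88 after Si-KDM4C#2. CPS1 fell with both siRNAs (-0.25, adjusted p = 0.000804, and -0.54, adjusted p = 6.19e-06). The other 14 stayed at or below 0.248 FPKM in every library and summed to 0.319 to 0.472 FPKM in Scramble, 0.0650 to 0.169 after Si-KDM4C#1 and 0.323 to 0.524 after Si-KDM4C#2. The highest of them were CYP3A4, a drug-metabolizing enzyme, at 0.133 ± 0.0865 FPKM in Scramble, and HNF4A, the hepatocyte transcription factor, at 0.116 ± 0.0102. AFP, SERPINA1, TF and the fibrinogen genes, which mark hepatocytes and Huh7 cells in particular, were thus at or near 0, which goes against the labelled line, and no other name is given to the cells here.

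Among bile duct markers, SOX9 was at 0.396 ± 0.0109 FPKM in Scramble and CFTR was at 0.0243 ± 0.00276. In Scramble KRT7 was thus present at over 100 FPKM with KRT19, its usual companion, below 1 FPKM.

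Of 11 listed epithelial junction and surface genes, 8 were tested, with 2 higher and 5 lower for Si-KDM4C#1 (31.7% and 33.9% of all genes) and 2 higher and 2 lower for Si-KDM4C#2 (34.4% and 25.0% of all genes). The list medians were -0.20 and -0.12. CD24, CLDN7 and ESRP2 were the highest over the 9 libraries, at 49.7 ± 1.31, 14.1 ± 1.67 and 11.6 ± 0.962 FPKM in Scramble. CD24 was called lower with Si-KDM4C#2 (-1.03, adjusted p = 6.18e-08), MUC1 lower with Si-KDM4C#1 (-1.02, adjusted p = 5.28e-06) and CLDN1 higher with Si-KDM4C#1 (1.31, adjusted p = 4.39e-07). CDH1, the epithelial cadherin, was at 0.0207 ± 0.0114 FPKM in Scramble and lower elsewhere in its group means, and was chosen after its values were seen.

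Of 12 mesenchymal genes, 9 were tested, with 1 higher and 4 lower for Si-KDM4C#1 (31.7% and 33.9% of all genes) and 3 higher and 2 lower for Si-KDM4C#2 (34.4% and 25.0% of all genes). The list medians were -0.038 and 0.080. After VIM, COL1A1 stood at 14.8 ± 0.875 and CDH2 at 9.21 ± 0.198 FPKM in Scramble. FN1, fibronectin, was called lower with both siRNAs (-1.02 in each, adjusted p = 1.04e-05 and 1.58e-05), and PDGFRB lower with Si-KDM4C#1 (-1.17, adjusted p = 3.35e-06). Of the blood and endothelial markers, 0 of 10 listed were tested, and none passed 0.792 FPKM in any library. The highest group means were 0.374 for CD14, 0.435 for HBA1 and 0.190 for CD74 of the blood markers, and 0.539 for CDH5, 0.278 for PECAM1 and 0.171 for TEK of the endothelial ones. The part that any of these markers plays in the keratin values was not tested.

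**Figure D4:**
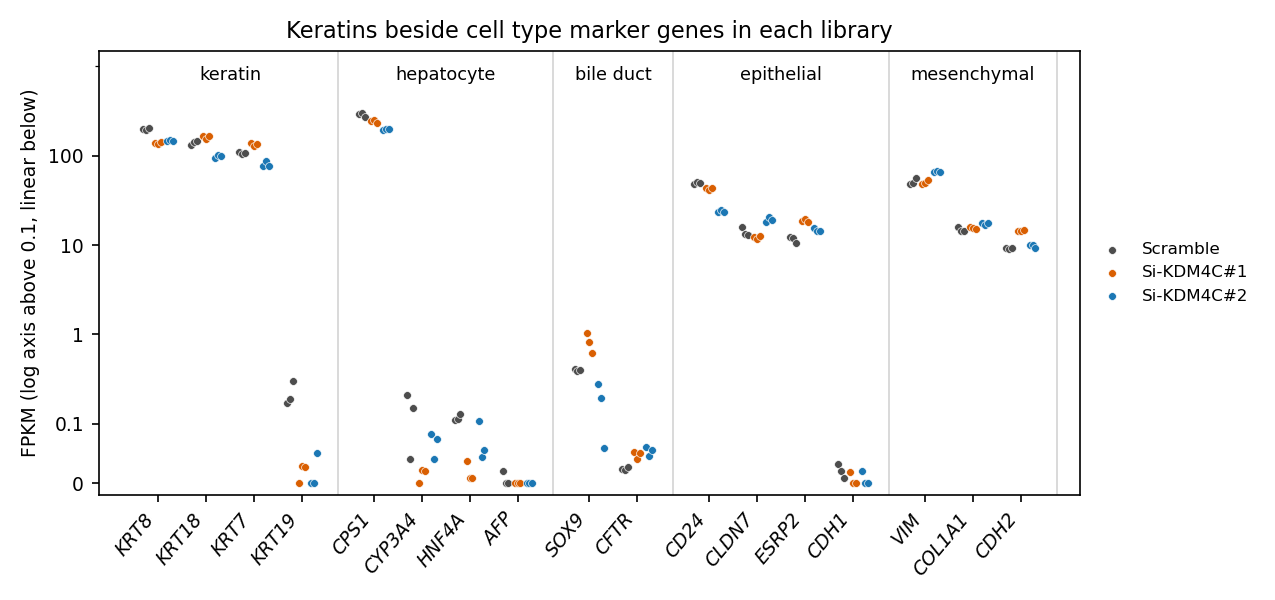
FPKM in each library of 4 keratins and of markers of hepatocytes, bile ducts, epithelial and mesenchymal cells, on an axis that is logarithmic above 0.1 and linear below, with colours for the 3 groups. KRT8, KRT18, KRT7, CPS1 and VIM stand between 48.3 FPKM, the lowest VIM value, and 302 FPKM, the highest CPS1 value, while KRT19, AFP, HNF4A and CDH1 stay near 0.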

How the data were processed

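For each library the authors deposited FPKM values beside gene identifiers and symbols, without counts. Their notes name GRCh38, FastQC 0.11.5, HISAT2 2.1.0, StringTie 1.3.3b and featureCounts among their tools, with no role or order. The annotation, the strand setting and any scaling between libraries are not given in the sources used here. With exon lengths of GENCODE release 29, 97.66% of genes came out as whole fragments (within 0.05) in all libraries, which gave the depth. The floor of 3 fragments was 0.166 to 0.206 FPKM for 1 kb of exon, for counting error only.

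log2(FPKM + 1) of the 14363 genes with a group mean of at least 1 FPKM was fitted in limma 3.58.1 (R 4.3.3; limma-trend, 9 libraries, no covariates), with Benjamini-Hochberg adjustment, an FDR of 0.05 and a fold change of 2. The script was tested on simulated data. The members, gene lists and tests were chosen with earlier results of these data known. Named were the tested keratins, KDM4C, the 3 members of each list with the highest mean over the 9 libraries and the members called against Scramble; exceptions are said where they occur, a few items are not reported here, and genes that neighbour or overlap a keratin were named by position. siRNA target stretches were located in KDM4C-202 from the sequences in the study's methods and read from GENCODE. Coding sequences of the principal (APPRIS) transcripts were aligned globally with Biopython 1.88. Figures were drawn with matplotlib 3.10.9.

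The replicate numbers 1 to 3 recur in each group. Deviations from the group means of same-numbered libraries had a mean correlation of 0.0162 over 9 pairs (from -0.0461 to 0.0546) and others of -0.00808 over 18 pairs, so the numbers were not taken to pair libraries. Libraries of a group differed by more than the counting noise, and none was counted as a duplicate. Alternatives were other scalings, pseudocount, filters, libraries, call rules, a replicate block, voom on recovered fragments, a GC adjustment, leaving out each library, and, added after the data were seen, the principal transcript length.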

Additional observations from a re-analysis of the deposited data

Results flagged for a closer look

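For 5 keratins the effect of the siRNAs differed in the direct test of Si-KDM4C#2 against Si-KDM4C#1 (limma-trend, Benjamini-Hochberg). Of all tested genes, 26.5% were lower and 35.9% higher with Si-KDM4C#2 in this test. The log2 difference was -2.36 for KRT80, -0.73 for KRT7, -0.71 for KRT18, -0.59 for KRT10 and 0.92 for KRT86. KRT80 and KRT10 moved in the same direction with both siRNAs against Scramble and by unequal amounts, while KRT7, KRT18 and KRT86 lay on opposite sides of Scramble with the 2 siRNAs. The rises of KRT7 and KRT18 with Si-KDM4C#1 and of KRT86 with Si-KDM4C#2 did not pass the test in all alternatives. KDM4C itself was lower with Si-KDM4C#2 than with Si-KDM4C#1 (log2 difference -0.73, adjusted p = 2.4e-05), and its part in these differences was not tested.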

How the results depend on the processing

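Each of the 8 tested keratins kept its direction against Scramble with either siRNA in all alternatives where it had a value. Not every one passed the test in each of them. KRT80 with Si-KDM4C#2 stayed called in all. With no limit on the fold change the counts of keratins were 3 up and 5 down for Si-KDM4C#1, 2 and 6 for Si-KDM4C#2, and 1 and 4 between the siRNAs. Of all tested genes, 31.7% and 33.9%, 34.4% and 25.0%, and 35.9% and 26.5% were up and down, in the same order. Tested against a fold of 2, 0 keratins were higher with Si-KDM4C#1, and KRT80 was the single keratin that passed, with Si-KDM4C#2 and between the siRNAs. Between the siRNAs, 1 (KRT86) passed a fold of 2 upward with a pseudocount of 0.1 (1.46) and with voom (1.41; 1.43 with the replicate block). Summed keratin FPKM in Scramble was 574 with pseudogenes added and 1455 per kilobase of principal transcript, and leaving out 1 library gave 551 to 562. Leaving out each library in turn made 6 of 216 comparisons of a keratin turn direction, all of them small differences between the siRNAs. In 15 an adjusted p under 0.05 was lost, and in 1 it was gained. Where the library left out belonged to neither compared group, the log2 fold change could not change, and the 216 include these. KRT17 between the siRNAs was then -0.058 to 0.028, and KRT81 -0.15 to 0.16. KRT8 reached an adjusted p under 0.05 without Si-KDM4C#1 replicate 3 (0.10, adjusted p = 0.0493) and by quantile normalization (0.18), both under a fold of 2. It was -0.040 with voom and -0.041 with voom and the block. KRT17 was 0.064 by quantile normalization and -0.14 with voom (adjusted p = 0.0355), and KRT81 was -0.12 by quantile normalization, -0.089 with voom, -0.084 with voom and the block, and -0.042 after GC adjustment with or without the block. The replicate block left the log2 fold changes of the main setting as they were and changed no call of a keratin there (KRT80 with Si-KDM4C#2: -2.85, adjusted p = 4.14e-07), and the libraries share only a number. KRT86 had no value with at least 1 FPKM required in every library. Over all genes, GC adjustment moved the calls with Si-KDM4C#2 from 373 higher and 330 lower to 238 and 376, and between the siRNAs from 634 and 358 to 490 and 456. Where the cause of a change is not given by the setting itself, the cause was not tested. Depth limits KRT81, KRT86 and the 20 untested keratins.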
